A study of Rattus norvegicus with 8 samples.

Results

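Intermediate filament genes of neurons (Nefl, Nefm, Nefh, Ina and Prph) and of dividing neural progenitors (Nes and Vim) were followed in the heads of rat embryos. Their probe sets, the groups of short probes that an array sums to 1 intensity per transcript, were chosen by gene name: every probe set that the platform annotation pairs with 1 of these 7 symbols and no other. The 7 are among 4737 genes named on the array. There were 11 such probe sets of 8799, 8 for the neuronal filaments and 3 for the progenitor filaments. Nefl, Nefh, Ina and Nes had 2 each. Of the 11, 10 passed the filter on dim values (above 255 on at least 2 arrays), as did 5881 of all probe sets, and only these 5881 were tested. The 1 member left out was rc_AA818677_at of Nefh.

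The embryos were E12.5 (age in days of gestation) and were wild-type or, in the words of the labels, Pax6 homozygous, with no allele named. Pax6 is a transcription factor of the developing eye, nose and brain, and the series looked for genes that depend on it. Heads were cut at the isthmus: forebrain samples therefore included the midbrain, the eye and the nasal primordia, and hindbrain samples included the pharyngeal arches. The 4 groups, wild-type forebrain, Pax6 homozygous forebrain, wild-type hindbrain and Pax6 homozygous hindbrain, had 2 Affymetrix rat expression arrays each, and 8 arrays in total limit how precise any value can be. The labels do not say how many embryos were pooled, or whether the arrays within a group are from different embryos or litters. The p-values therefore cover the spread among these arrays alone, which may be technical.

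Intermediate filaments are rope-like polymers of the cytoskeleton. Neural progenitors of the ventricular zone build theirs from vimentin and nestin, and neurons that leave the cell cycle replace them with alpha-internexin and the neurofilament subunits, with peripherin added mainly in neurons that send axons to the periphery. In the mature axon the light, medium and heavy neurofilament subunits assemble together and set its calibre, and the heavy subunit appears last.

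To show what lies before the genes, the 250 bases before the start site were taken for 4 of the 7 genes from RefSeq's rat assembly GRCr8, each on the plus strand. These 4 are the members with a promoter entry in the source used, and Nefl, Nefm and Nefh had none. Of the 4, Ina and Prph are neuronal filaments that differed between the regions. Nes and Vim are progenitor filaments that did not pass that test. Capitals mark the TATA-box letters TATAAA, the GC-box letters GGGCGG and the E-box letters CANNTG, the core bound by proneural factors, each searched on both strands (GGGCGG reads CCGCCC on the other strand).
Ina chr1:255837879-255838128: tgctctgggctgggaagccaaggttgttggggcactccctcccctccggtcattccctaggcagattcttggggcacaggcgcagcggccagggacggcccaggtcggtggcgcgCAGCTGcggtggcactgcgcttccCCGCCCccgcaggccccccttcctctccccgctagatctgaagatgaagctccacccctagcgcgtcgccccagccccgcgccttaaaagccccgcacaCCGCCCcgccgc
Prph chr7:132097039-132097288: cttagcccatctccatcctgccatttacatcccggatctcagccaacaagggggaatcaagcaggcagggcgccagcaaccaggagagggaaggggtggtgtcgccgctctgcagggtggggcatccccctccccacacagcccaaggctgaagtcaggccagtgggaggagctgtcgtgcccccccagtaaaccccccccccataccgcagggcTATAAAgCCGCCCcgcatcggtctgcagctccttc
Nes chr2:175736338-175736587: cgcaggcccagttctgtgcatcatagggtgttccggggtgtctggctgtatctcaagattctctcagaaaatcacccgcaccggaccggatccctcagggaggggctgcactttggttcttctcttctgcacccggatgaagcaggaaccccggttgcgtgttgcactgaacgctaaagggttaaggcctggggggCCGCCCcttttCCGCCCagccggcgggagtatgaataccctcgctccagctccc
Vim chr17:81577011-81577260: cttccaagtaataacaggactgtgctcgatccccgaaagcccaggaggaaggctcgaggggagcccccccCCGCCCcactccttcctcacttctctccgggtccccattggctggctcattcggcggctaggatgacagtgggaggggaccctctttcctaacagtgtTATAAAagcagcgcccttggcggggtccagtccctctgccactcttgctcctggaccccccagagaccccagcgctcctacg

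All 4 windows held GGGCGG, as did 30.5% of 33469 rat windows of the same length. TATAAA stood in 2 of the 4, at 35 to 30 bases before the start of Prph and 82 to 77 bases before that of Vim, and in 12.9% of all windows. An E-box was found before Ina alone of the 4, as CAGCTG at 135 to 130 bases before the start; CANNTG occurred in 65.5% of all windows and CAGCTG in 12.0%. CCAAT, left in lower case, was found before Vim alone, and in 34.0% of all windows. The windows were rich in G and C, from 60.4% before Nes to 70.8% before Ina, with a median of 51.2% over all windows. The tabulated starts of Nes and Prph lie 873 and 401 bases inside the gene's span, so another start lies farther upstream. A match of letters is a description of these windows and says nothing on binding. Nefl and Nefm are next to each other among the protein-coding genes of chromosome 15, whereas the other 5 genes lie on other chromosomes.

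Across probe sets, paired arrays of 1 group correlated on the log2 scale with r between 0.899 and 0.947. The dissection could be checked with Lhx2, a forebrain transcription factor, which was at 7768 to 8692 on the forebrain and 1444 to 1801 on the hindbrain arrays (log2 difference 2.39, adjusted p = 4.43e-05). Of the hindbrain markers, Egr2 was measured and rose above the noise level on 1 array, of wild-type hindbrain. Pax6 itself, read by S74393_s_at, lay between 531 and 1243 on the 8 arrays and was not lower in the Pax6 homozygous groups, and nothing used here says whether the allele removes the transcript, so it does not check the genotype labels.

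Between the regions, 4 of the 5 neuronal filament genes were lower in forebrain than in hindbrain, in both genotypes, while Nes and Vim did not pass the test. The fitted fold from hindbrain to forebrain was 6.11 for Nefl, 6.86 for Nefm and 2.68 and 3.08 by the probe sets of Ina, and at least 3.60 for Prph. Nefh was too dim to be read. By limma's test with Benjamini-Hochberg adjustment over the 5881 probe sets, 6 of the 10 member probe sets passed at 0.05 as lower in forebrain, against 1.22% of all probe sets, and 0 as higher, against 0.289% of all. Those 6 were also the ones whose 4 forebrain arrays all lay below the 4 hindbrain arrays, which held for 4.37% of all probe sets, and for 2.28% in the opposite direction. The second Nefl probe set and that of Prph are among the 6 and would not have passed the filter on dim values on their forebrain arrays, so their place in the count is a description. In these bulk samples, fewer cells of a type and less RNA per cell cannot be told apart.

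Nefl encodes the light neurofilament subunit, on which the other subunits assemble. Its brighter probe set, AF031880_at, was at 2264 and 1890.3 on the wild-type forebrain arrays and 2866 and 2953 on the Pax6 homozygous forebrain arrays. In hindbrain the wild-type arrays read 13592 and 18581, and the Pax6 homozygous arrays 12096 and 16516. All 4 hindbrain arrays stood far above all 4 forebrain arrays, and the hindbrain genotypes overlapped. The log2 difference, forebrain minus hindbrain, was -2.61 ± 0.16 (SE; 95% interval -2.98 to -2.24, adjusted p = 6.31e-05). The ratio of group means, hindbrain over forebrain, was 7.74 for wild-type and 4.92 for Pax6 homozygous embryos.

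The other Nefl probe set, M25638_s_at, was at -467, -180.4, -585 and 253 on the forebrain arrays, none of them above the noise level of its array (the size of the array's 5th percentile, 243 to 620). On the hindbrain arrays it was at 4452 and 6312 in wild-type and 3072.5 and 4969 in Pax6 homozygous embryos, all above noise. It passed the filter only through hindbrain, and it gives only a bound for forebrain, a hindbrain level at least 11.0-fold higher (adjusted p = 0.000489). Only 3 of the 5881 probe sets had a lower log2 difference between the regions, though its size, -6.02 ± 0.52, depends on the floor of 45.9 under the forebrain values. Over the 8 arrays, which span both regions, the 2 probe sets of Nefl correlated with r = 0.979.

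Nefm encodes the medium neurofilament subunit. In forebrain Z12152_at read 2891 and 3041.5 for wild-type and 2072 and 3765 for Pax6 homozygous embryos. In hindbrain it read 20918 and 22237 for wild-type and 18680.4 and 17499.8 for Pax6 homozygous embryos. The regions again did not overlap, and the log2 difference was -2.78 ± 0.18 (95% interval -3.19 to -2.36, adjusted p = 7.80e-05). Hindbrain exceeded forebrain 7.27-fold in wild-type and 6.20-fold in Pax6 homozygous group means.

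Ina encodes alpha-internexin, which many neurons make before the neurofilament subunits. The forebrain arrays read 6269.7 and 5536 for wild-type and 5211 and 3561.5 for Pax6 homozygous embryos (M73049_at), and the hindbrain arrays 17907 and 18647 for wild-type and 10326 and 9638 for Pax6 homozygous embryos. The second probe set, rc_AA875659_s_at, read 3958 and 3571, 4133 and 4909.7, 17269 and 15727, and 10302 and 9203 in the same order. By both probe sets, wild-type hindbrain stood highest, Pax6 homozygous hindbrain next and the forebrain groups lowest, with no overlap between the regions. The log2 differences between the regions were -1.42 ± 0.14 (adjusted p = 0.00121) and -1.62 ± 0.12 (adjusted p = 0.000215). Under an inverse hyperbolic sine transform with each array's own noise level, both lost the call, at -1.64 (adjusted p = 0.234) and -1.84 (adjusted p = 0.171).

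Prph encodes peripherin, a filament of peripheral and cranial motor neurons and sensory ganglia. AF031878_at was at 416.5, 188, 250.3 and 181 on the forebrain arrays, none above noise, whereas the hindbrain arrays read 1943 and 1802.5 in wild-type and 1131 and 1235 in Pax6 homozygous embryos. The probe set owes its pass of the filter on dim values to hindbrain, where it is high, since 1 forebrain array alone was above 255, so its test is given as a description. Peripherin was read above noise in hindbrain alone, at least 3.60-fold higher there (log2 difference -2.61 ± 0.34, adjusted p = 0.00576). The call was lost without Pax6 homozygous hindbrain replicate 1 (adjusted p = 0.0523) or replicate 2 (adjusted p = 0.0660) and with no filter on dim probe sets (adjusted p = 0.0514).

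Nefh encodes the heavy neurofilament subunit. X13804cds_at lay between 126 and 401.5 on all 8 arrays, above noise on 3 of them, and rc_AA818677_at lay between -160.4 and 174 and was above noise on none. No level of Nefh can therefore be given, and the log2 difference of X13804cds_at between the regions (-0.52 ± 0.42, adjusted p = 0.906) has a 95% interval from -1.47 to 0.43.

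The progenitor filaments were bright in every group. Nes encodes nestin, the filament protein by which neural progenitors are often identified. The forebrain arrays read 13157 and 10985 for wild-type and 12263 and 13175 for Pax6 homozygous embryos (M34384_at), and the hindbrain arrays 16552 and 13246 for wild-type and 15779 and 12354 for Pax6 homozygous embryos. All groups overlapped with at least 1 other, and the log2 difference between the regions was -0.22 ± 0.13 (95% interval -0.52 to 0.08, adjusted p = 0.803). Its dim second probe set, rc_AI030685_s_at, lay between 189 and 369, above noise on 2 of 8 arrays, and did not follow the first closely (r = 0.160).

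Vim encodes vimentin, made by neural progenitors and also by mesenchyme, blood vessels and other embryonic tissue. The forebrain arrays read 39971 and 34113 for wild-type and 35494 and 34392 for Pax6 homozygous embryos (X62952_at), and the hindbrain arrays 44734 and 34406 for wild-type and 37266 and 34251 for Pax6 homozygous embryos. All 4 groups overlapped, with the highest value on wild-type hindbrain replicate 1, and the log2 difference between the regions was -0.06 ± 0.11 (95% interval -0.31 to 0.19, adjusted p = 0.999). The intervals of Nes and Vim do not reach the differences fitted for Nefl, Nefm, Ina or Prph, and they do not show that the levels were equal.

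**Figure D1:**
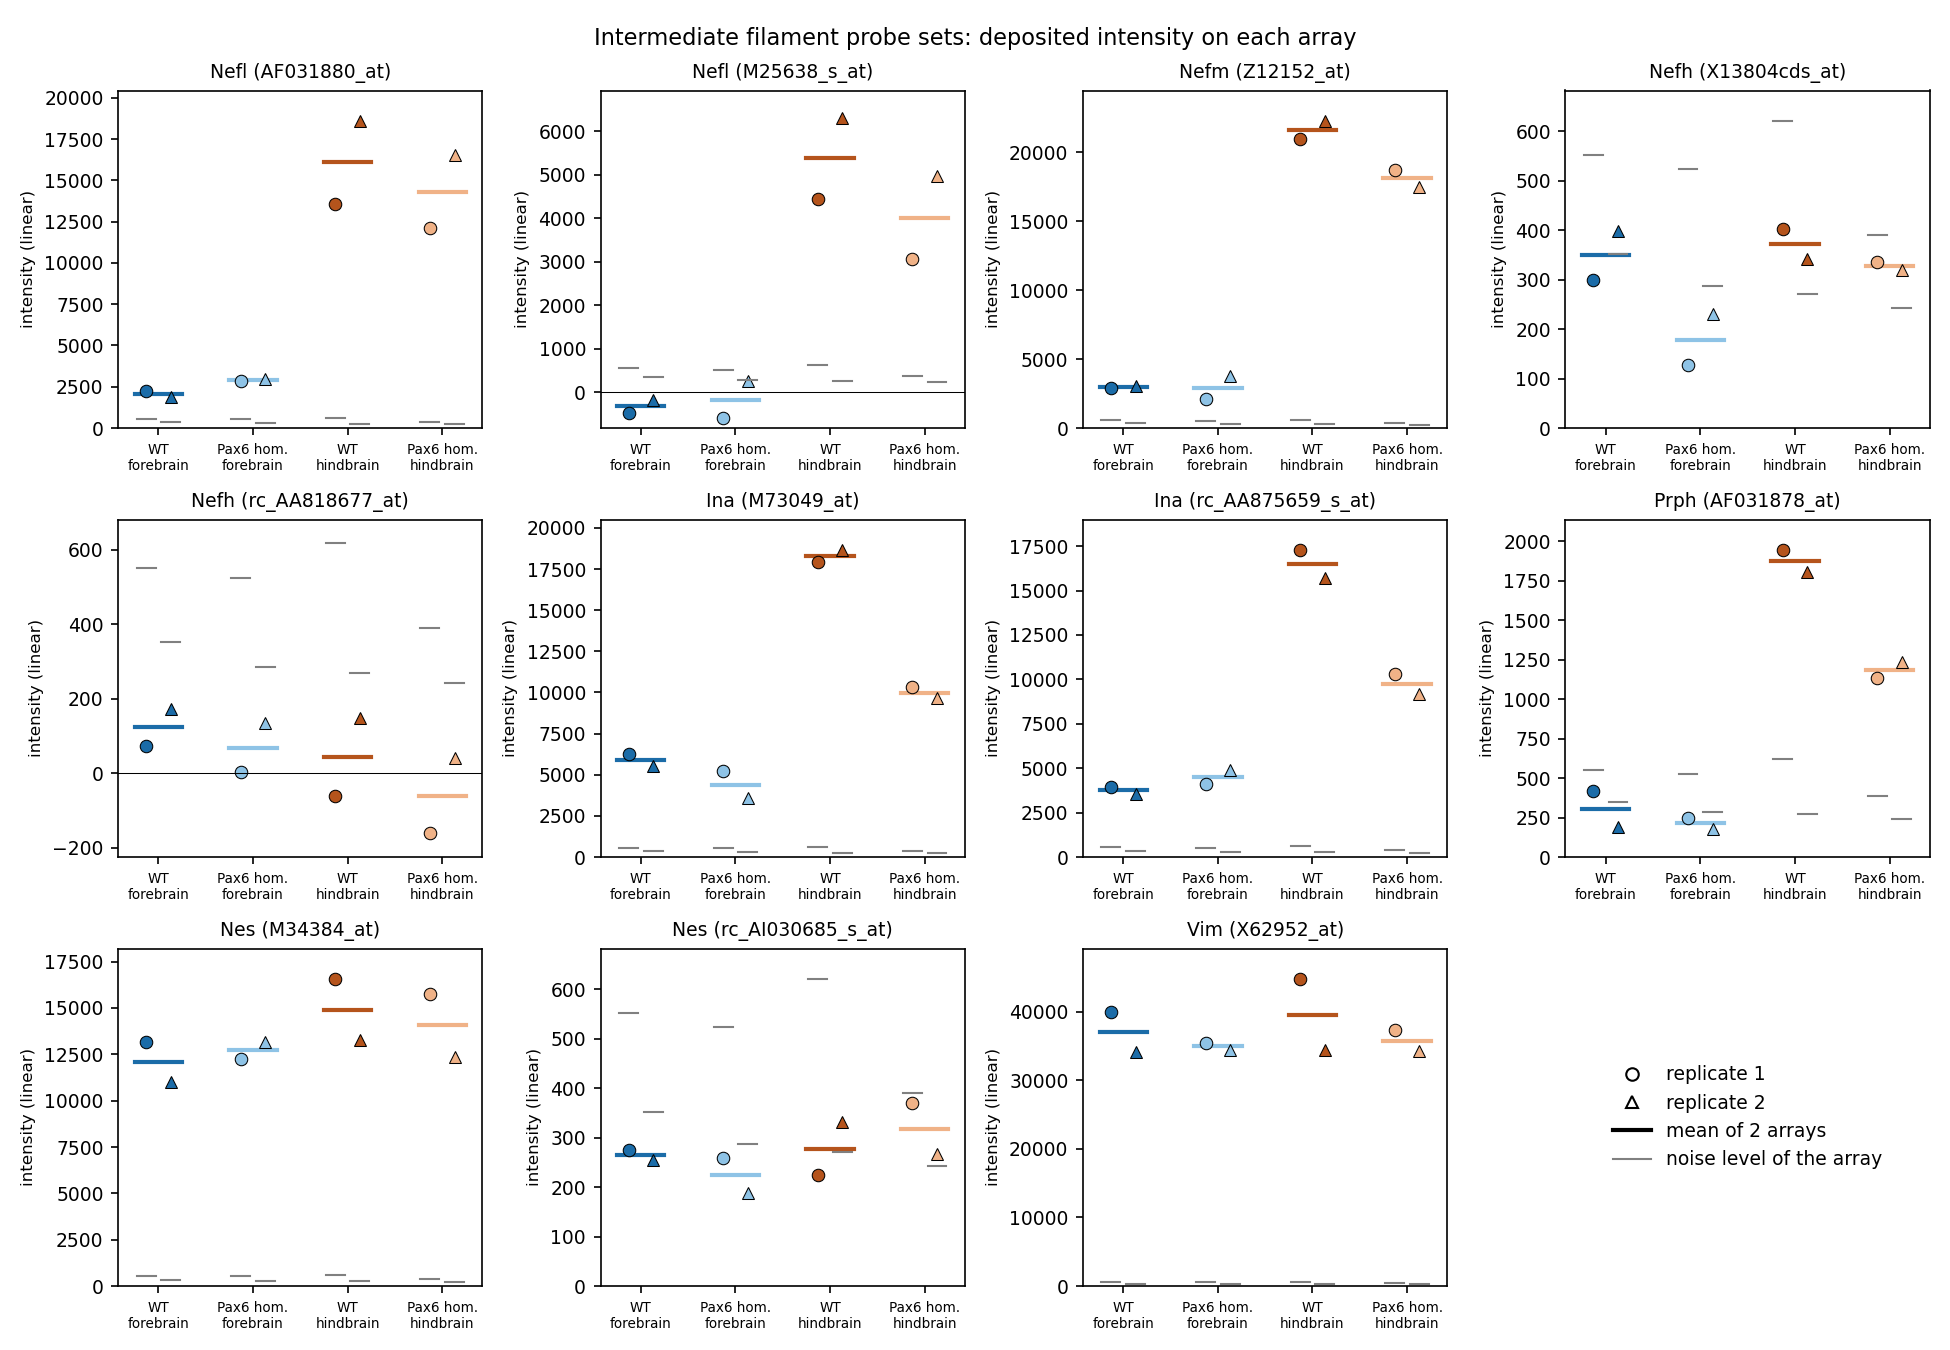
Deposited intensity (linear axis) of the 11 intermediate filament probe sets on each of the 8 arrays, with replicate 1 as circles, replicate 2 as triangles, the mean of the 2 arrays of a group as a bar and the noise level of each array as a thin grey line. The 4 hindbrain arrays stand above the 4 forebrain arrays for Nefl, Nefm, Ina and Prph, while both Nefh probe sets and rc_AI030685_s_at of Nes lie near the noise level and the bright Nes and Vim probe sets overlap between regions.

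The contrast between the classes can be read on each array as the mean deviation of a class from its own average over the 8 arrays (log2, brightest probe set of each gene). The 5 neuronal filaments averaged between -1.22 and -0.74 on the 4 forebrain arrays and between 0.75 and 1.23 on the 4 hindbrain arrays. The 2 progenitor filaments averaged between -0.19 and 0.05 in forebrain and between -0.10 and 0.30 in hindbrain. The neuronal filaments thus split the arrays by region, and the progenitor filaments overlapped. The difference of the classes, neuronal minus progenitor, ran from -1.13 to -0.77 in forebrain and from 0.62 to 1.28 in hindbrain. Nefh and Prph, which were mostly or wholly below noise in forebrain, enter these means at their own readings, which lay above the floor.

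**Figure D2:**
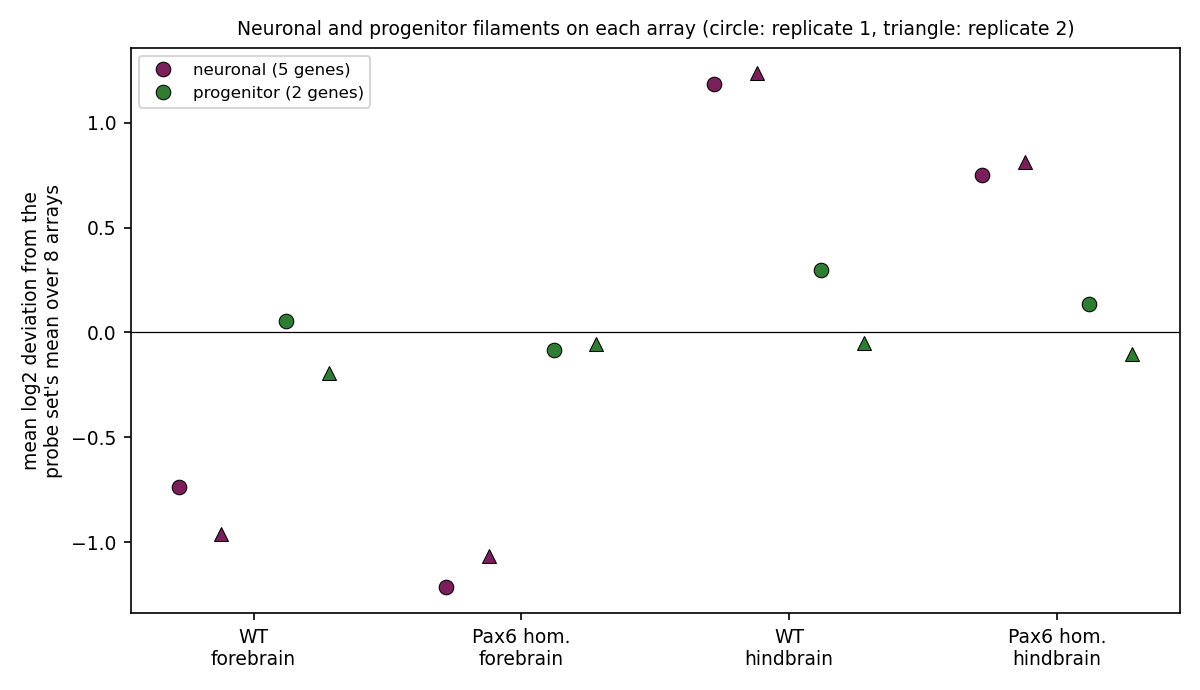
Mean log2 deviation of the 5 neuronal (purple) and 2 progenitor (green) filament genes from their own mean over 8 arrays, for each array of the 4 groups (circle replicate 1, triangle replicate 2). The neuronal points run from -1.22 to -0.74 in forebrain and from 0.75 to 1.23 in hindbrain, and the progenitor points from -0.19 to 0.30 over all arrays.

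Among all 5881 probe sets, whose median log2 difference between the regions was -0.02, only 35 had a lower difference than Nefm, 43 than AF031880_at of Nefl, 44 than Prph, and 137 and 170 than the probe sets of Ina. Nes (M34384_at) and Vim had 1578 and 2582 probe sets below them. By gene, with the brightest probe set, the neuronal filaments had a median of -2.61 (5 of 5 below 0, 4 called), the progenitor filaments a median of -0.14 (2 of 2 below 0, 0 called), and all 3553 tested genes a median of -0.01 (1845 below 0, 40 called lower and 14 higher). The median of -2.61 is the value of Prph, which was below noise on every forebrain array. That median and the rank of Prph are therefore a description. Nefh, too dim to be read, is among the 5 below 0.

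**Figure D3:**
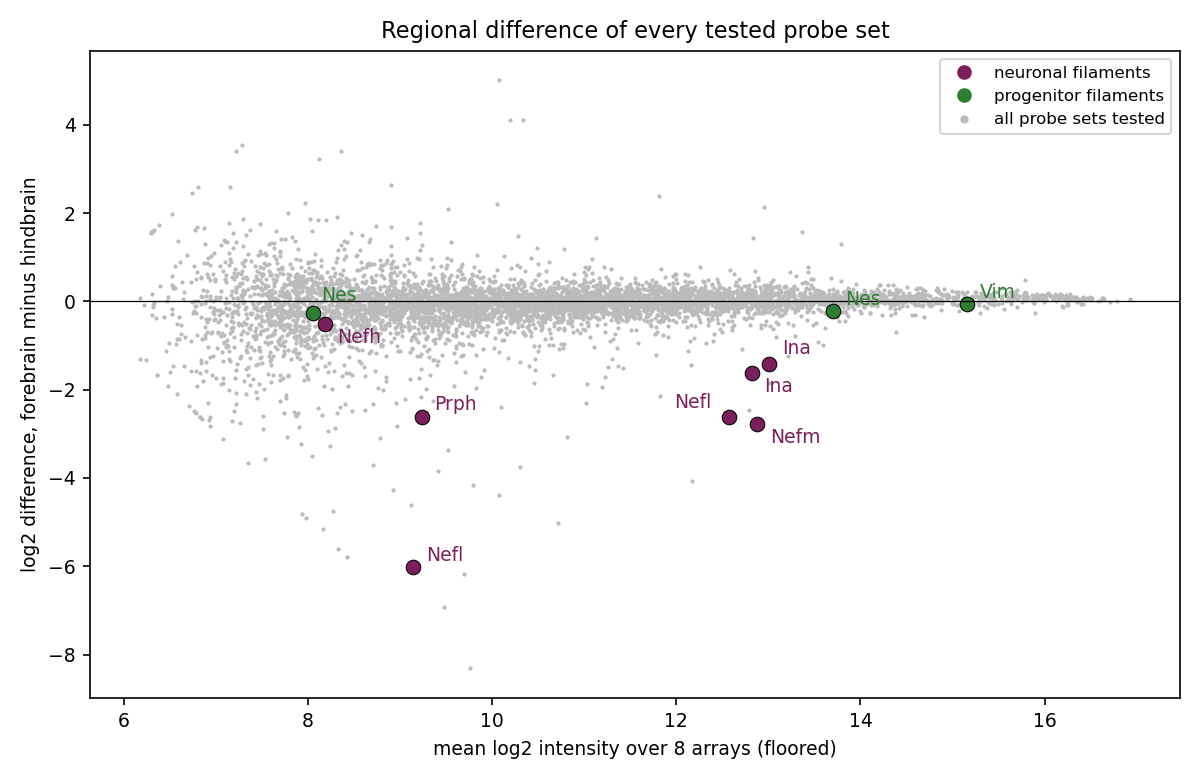
Log2 difference between the regions (forebrain minus hindbrain) against mean floored log2 intensity over 8 arrays, for each of the 5881 tested probe sets (grey) and the 10 member probe sets (purple neuronal, green progenitor). Nefl, Nefm, Ina and Prph lie at -1.42 to -6.02, lower than most probe sets though not all, while Nes, Vim and the dim Nefh lie among the bulk of the grey points.

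Other filament genes were compared with them. Of 10 tested genes for keratins, lamins, desmin and the lens filament protein Bfsp1, 8 were below 0 between the regions with a median of -0.20, and 1 passed: Krt19, a keratin of simple epithelia, at 120 to 223 in forebrain, below noise on all 4 arrays, and 754 to 1003 in hindbrain (-2.49 ± 0.38, adjusted p = 0.0149). Krt19 passed the filter on dim values only through hindbrain, so its test is a description. The genes next in order of p, Bfsp1 (-1.88 ± 0.68) and Des (-1.33 ± 0.99), did not pass. Both were below noise on all 4 forebrain arrays. Neither would have passed the filter on dim values on those arrays, so their differences are a description. Of 14 tested genes for proteins that link filaments to other structures or phosphorylate them, 8 were below and 6 above 0, with a median of -0.04, and 0 passed. Their smallest p-values belonged to Aurkb (0.36 ± 0.14, adjusted p = 0.520) and Cdk1 (0.21 ± 0.11), mitotic kinases that phosphorylate vimentin, and to Pak1 (-0.42 ± 0.18), a kinase activated by Rac and Cdc42. The unadjusted p of Aurkb and Pak1 was under 0.05.

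Among lists of cell type markers, the summed intensities of neurons, of motor and peripheral neurons and of muscle did not overlap between the regions, and those of neural progenitors, mesenchyme, endothelium and blood did. Of 9 tested genes of neurons, 7 were below 0 with a median of -0.54, and Rtn1, a reticulon of the neuronal endoplasmic reticulum, passed (-1.24 ± 0.13, adjusted p = 0.00164). Elavl4, a neuronal RNA-binding protein (-0.65 ± 0.13, adjusted p = 0.0588), and Gap43, a growth cone protein (-0.54 ± 0.14, adjusted p = 0.136), did not. The summed intensity of 10 neuronal markers ran from 35390 to 41056 on the forebrain arrays and from 42734 to 61389 on the hindbrain arrays, without overlap. Rtn1 is a large share of that gap, at 5265 to 7027 in forebrain and 11396 to 17142 in hindbrain. With 2 of the 9 tested genes above 0, the sums cannot be read as a shift of the whole list.

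Of 5 tested genes of motor and peripheral neurons, where peripherin is made, 3 were below 0, and Isl1, a factor of motor and sensory neurons (-2.40 ± 0.50, adjusted p = 0.0614), and Phox2a, a factor of visceral motor neurons (-2.33 ± 0.55, adjusted p = 0.108), had the smallest p-values, followed by Slc18a3 (0.70 ± 0.80). Phox2a was below noise on every forebrain array and passed the filter on dim values only through hindbrain, so its test is a description. The list of 7 motor and peripheral neuron genes summed to 2731 to 3605 in forebrain and 3984 to 7625 in hindbrain, with values below 0 entered as 0. Isl1 is a large share of that gap, at 107 to 955 in forebrain and 1726 to 3096 in hindbrain. With 2 of the 5 tested genes above 0, the sums cannot be read as a shift of the whole list. Of 8 neural progenitor genes, 6 were below 0 with a median of -0.35, and Fabp7, a fatty acid binding protein of radial glia, passed (-1.72 ± 0.16, adjusted p = 0.000854). Id1 (-0.80 ± 0.17) and Cspg5 (-0.98 ± 0.22) did not. The 8 progenitor genes summed to 33833 to 68431 in forebrain and 51525 to 80134 in hindbrain.

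Non-neural genes were read beside them. All 5 muscle genes were below 0, with a median of -1.69, and their sum was 286 to 976 in forebrain, with at most 1 of 5 above noise, against 17123 to 18833 in hindbrain, where cardiac actin (Actc1) passed (-8.31 ± 0.24). Actc1 lay between -184 and 56.7 in forebrain, below noise, so the size of its difference depends on the floor. It passed the filter on dim values only through hindbrain, and its test is a description. The sum of 8 mesenchyme genes lay between 68981 and 85460 on all arrays, with 5 of 8 below 0. The 1 mesenchyme gene that passed, Alx1, a homeobox gene of facial mesenchyme, was higher in forebrain, 4692 to 7274 against 116 to 378 and below noise on all 4 hindbrain arrays (5.01 ± 0.26, adjusted p = 3.76e-05). Alx1 in turn owes its pass of the filter to forebrain, where it is high, so its test is a description as well. The part of these cell types in the regional difference of the filaments was not tested.

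Between the genotypes, 0 of the 10 member probe sets passed limma's test in any comparison. In hindbrain the 7 tested neuronal filament probe sets, of 5 genes, all had lower fitted means in the Pax6 homozygous group. Over all probe sets 45.5% were lower. The log2 differences of the 7 ran from -0.87 to -0.17, and under some processing alternatives the signs of Nefm and of AF031880_at of Nefl turned. The probe sets of Ina, at 54.6% and 59.1% of their wild-type means, had the smallest p-values. In forebrain the neuronal filaments had differences of both signs. The bright probe sets of Nes and Vim had log2 differences between -0.14 and 0.08 in both regions.

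In hindbrain 1 of 5881 probe sets passed (0.017%), with 264 at an unadjusted p under 0.05. The 1 was Fabp7, of radial glia, at 1190 and 1205 in Pax6 homozygous against 16568 and 15111 in wild-type embryos (-3.72 ± 0.23, adjusted p = 0.000558), beside the overlapping values of Nes and Vim. Of the 10 members 2 were at an unadjusted p under 0.05, both of Ina. For M73049_at the 2 Pax6 homozygous arrays (10326 and 9638) lay far below the 2 wild-type arrays (17907 and 18647). As Pax6 homozygous minus wild-type, the log2 difference was -0.87 ± 0.20 (95% interval -1.34 to -0.41) and the adjusted p = 0.894 in limma. For rc_AA875659_s_at it was -0.76 ± 0.17 (95% interval -1.16 to -0.36) and the adjusted p = 0.894. By p they ranked 14 and 11 among all probe sets. Between arrays of the same replicate number the differences were -0.79 and -0.95 by the first probe set and -0.75 and -0.77 by the second. That pairing is by name alone and enters no test.

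The other neuronal filaments had smaller or less certain differences in hindbrain. Prph was at 63.2% of its wild-type mean, 1183 ± 73.8 against 1873 ± 99.2 (mean ± SD, n = 2), with a log2 difference of -0.66 ± 0.48 (95% interval -1.75 to 0.43, adjusted p = 0.991). Nefm was at 83.8%, 18090.1 ± 835 against 21578 ± 933 (-0.25 ± 0.26, adjusted p = 0.991). In both, the genotypes did not overlap. Nefl was at 88.9% by AF031880_at (-0.17 ± 0.23) and 74.7% by M25638_s_at (-0.44 ± 0.74), and its genotypes overlapped by both probe sets. Whether Ina differed more than the other filaments was not tested.

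Counting arrays, the Pax6 homozygous hindbrain arrays both lay below both wild-type arrays for 5 of the 10 member probe sets, those of Nefm, Nefh, Prph and the 2 of Ina, against 14.5% of all probe sets. They lay above for 0 of 10, against 20.1% of all. The Nefh probe set is one of the 5 although it was above noise on only 1 of 2 arrays of each group.

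In hindbrain the bright probe set of Nes had a log2 difference of -0.08 ± 0.19 (95% interval -0.51 to 0.34), and Vim of -0.14 ± 0.15 (95% interval -0.49 to 0.22). Their genotypes overlapped, and the Pax6 homozygous means were 94.4% and 90.4% of wild-type. The intervals of Nes and Vim still hold changes of the size fitted for Nefm. On the scale of class deviations, the neuronal filaments averaged 1.18 and 1.23 on the wild-type and 0.75 and 0.81 on the Pax6 homozygous hindbrain arrays, without overlap, and the progenitor filaments 0.30 and -0.05 against 0.13 and -0.10, with overlap. The gap of the neuronal mean comes mostly from Ina (-0.87) and Prph (-0.66). Nefm (-0.25), Nefl (-0.17) and the dim Nefh (-0.18) had smaller differences.

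Lower fitted means in Pax6 homozygous hindbrain were found in neuronal and in progenitor lists alike. Of the 9 tested neuron markers 7 were below 0, with a median of -0.25, beside -0.25 for the 5 neuronal filament genes, -0.11 for the 2 progenitor filament genes and 0.03 for all 3553 genes (1632 below 0). Gap43 (-0.71 ± 0.19), Syp of synaptic vesicles (-0.95 ± 0.44) and Rtn1 (-0.44 ± 0.19) had the smallest p-values and did not pass (adjusted p = 0.989 each). Of the 8 neural progenitor genes 7 were below 0, with a median of -0.24, and Fabp7 fell. Blood had 3 of 4 below 0 (median -0.19), endothelium 3 of 3 (median -0.19) and mesenchyme 6 of 8 (median -0.05). The median of blood became 0.001 with the mean of a gene's probe sets. Summed neuron markers stood at 55357 and 61389 on the wild-type and 48228 and 42734 on the Pax6 homozygous hindbrain arrays, and the 7 motor and peripheral neuron genes at 7625 and 7024 against 3984 and 5687. Of the 5 tested motor and peripheral neuron genes, 3 were below and 2 above 0. Values below 0, such as -367 of Slc18a3 on 1 Pax6 homozygous array, entered the sum as 0. The 8 progenitor genes summed to 80134 and 77293 against 51525 and 57950. Fabp7 is a large share of that gap, at 16568 and 15111 against 1190 and 1205. With Hes1 at 0.08 and Slc1a3 at -0.03, the sums cannot be read as a shift of the whole list. The muscle sum, at 18571 and 18450.2 against 18833 and 17123, overlapped. The part of these cell types in the Ina and Prph values was not tested.

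Filament linkers and kinases did not go one way in hindbrain: 6 were below and 8 above 0 (median 0.03), with Rock2 (1.07 ± 0.54), Dync1h1 (-0.37 ± 0.24) and Gsk3a (-0.28 ± 0.18) at the smallest p-values, and 0 of 14 at an unadjusted p under 0.05. Other filaments and lamins had 4 below and 6 above 0 (median 0.13), with Krt5 (-0.34 ± 0.24), Bfsp1 (1.34 ± 0.96) and Krt10 (0.61 ± 0.59) at the smallest p-values, and 0 of 10 at an unadjusted p under 0.05. Bfsp1 passed the filter on dim values only through the Pax6 homozygous hindbrain arrays, so its difference is a description.

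In forebrain 1 of 5881 probe sets passed (0.017%), again Fabp7 (-2.81 ± 0.23, adjusted p = 0.00577), with 172 at an unadjusted p under 0.05, and 0 of the 10 members were under 0.05 unadjusted. Nefl by AF031880_at was at 140% of its wild-type mean, 2909.6 ± 61.4 against 2077 ± 264, and both Pax6 homozygous arrays lay above both wild-type arrays (log2 difference 0.49 ± 0.23, 95% interval -0.03 to 1.01, adjusted p = 1). Its other probe set was below noise on all 4 arrays. Nefm had a log2 difference of -0.09 ± 0.26, and its Pax6 homozygous arrays (2072 and 3765) enclosed the wild-type ones (2891 and 3041.5).

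The 2 probe sets of Ina disagreed in forebrain. M73049_at was lower in the Pax6 homozygous group, 4386 ± 1166 against 5903 ± 519 (-0.45 ± 0.20), and rc_AA875659_s_at higher, 4521 ± 549 against 3764 ± 274 (0.26 ± 0.17), neither passing (adjusted p = 1) and each without overlap of the genotypes. A forebrain direction for Ina cannot be given. Over the 8 arrays they correlated with r = 0.918.

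The forebrain genotypes did not overlap for 4 of the 10 members, against 23% of all probe sets. The Pax6 homozygous arrays were the lower ones for M73049_at of Ina and the dim X13804cds_at of Nefh, and the higher ones for AF031880_at of Nefl and rc_AA875659_s_at of Ina. Nes (0.08 ± 0.19, 95% interval -0.34 to 0.51) and Vim (-0.08 ± 0.15, 95% interval -0.43 to 0.27) overlapped between the genotypes. By gene, 4 of the 5 neuronal filaments were below 0 with a median of -0.40, which became -0.10 with the mean of a gene's probe sets; Prph and Nefh, near noise there, are among them. The neuron markers had 5 of 9 below 0 in forebrain, with a median of -0.01.

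**Figure D4:**
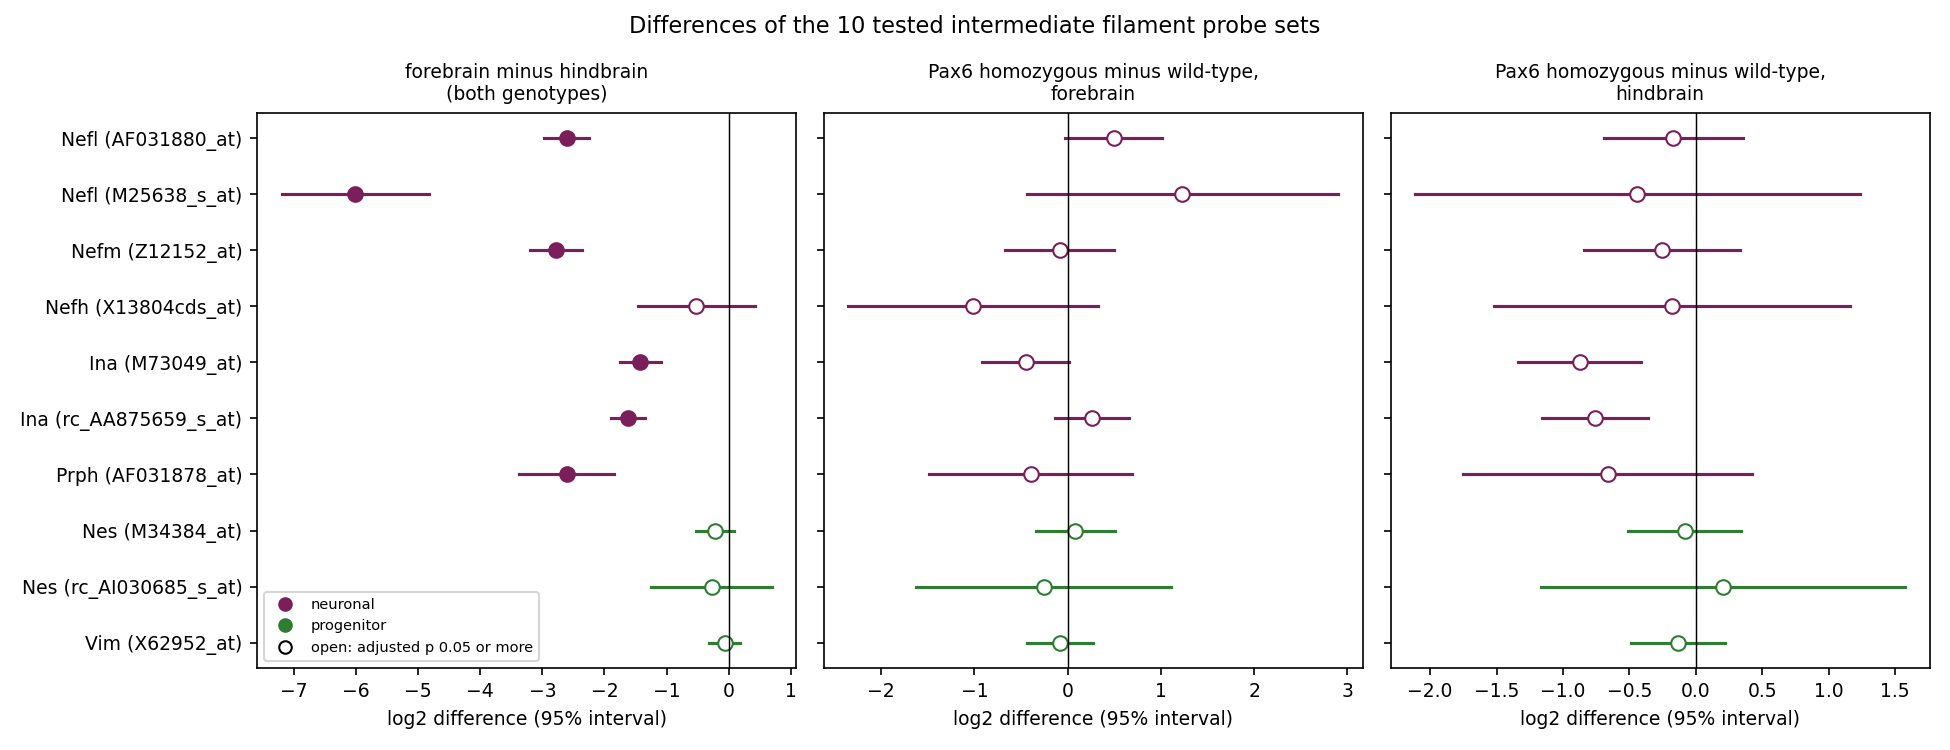
Log2 differences with 95% intervals (limma) of the 10 tested probe sets, for forebrain minus hindbrain over both genotypes and for Pax6 homozygous minus wild-type in forebrain and in hindbrain, in purple for neuronal and green for progenitor filaments. Filled points, with an adjusted p under 0.05, are the 6 probe sets of Nefl, Nefm, Ina and Prph between the regions, and every genotype point is open.

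Whether the genotype difference itself changed with region was tested as an interaction, forebrain minus hindbrain. It passed for 0 of 5881 probe sets (0%), with 112 at an unadjusted p under 0.05, 1 of which was a member. That was rc_AA875659_s_at of Ina, with 1.02 ± 0.25 (95% interval 0.46 to 1.58, adjusted p = 0.9995). M73049_at gave 0.42 ± 0.29 and AF031880_at of Nefl 0.66 ± 0.32. The probe sets of Ina therefore differed in size here, and neither passed. Over both regions together, 2 of 5881 probe sets passed (0.034%), 1 of them Fabp7 (-3.27 ± 0.16, adjusted p = 9.06e-05), with 295 at an unadjusted p under 0.05, and among the members M73049_at had the smallest p (-0.66 ± 0.14, adjusted p = 0.679), while rc_AA875659_s_at was at -0.25 ± 0.12 (adjusted p = 0.928).

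For each filament gene, the genes whose log2 values followed it most closely over the 8 arrays were sought among 3098 probe sets above noise on every array, as a description. The 8 arrays span both regions and share their depth of signal, so a regional gap raises r by itself. For Nefl they were Acta2, smooth muscle actin (r = 0.991), Cd24, a surface protein of young neurons and epithelia (r = 0.978), and Igfbp3, which binds insulin-like growth factors (r = 0.973). For Nefm they were Rtn1 (r = 0.988), Errfi1, an inhibitor of the epidermal growth factor receptor (r = 0.983), and Cadps, a factor of vesicle release (r = 0.982).

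For Ina they were Ngfr, the low-affinity neurotrophin receptor (r = 0.955), Cyp1b1, a cytochrome P450 enzyme (r = 0.943), and Atp9a, a phospholipid flippase (r = 0.926). Ngfr had a log2 difference of -1.22 between the regions and of -0.58 between the hindbrain genotypes. For Prph they were Cyp1b1 (r = 0.982), Dpysl4, a protein of growing axons (r = 0.963), and Cd24 (r = 0.962). Neuronal genes and genes of other tissue thus stood side by side in these lists.

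For Nes they were Scd, a fatty acid desaturase (r = 0.931), Igf1r, a growth factor receptor (r = 0.928), and Pfkm, an enzyme of glycolysis (r = 0.909). For Vim they were Rom1, a photoreceptor membrane protein (r = 0.961), Rpl5, a ribosomal protein (r = 0.959), and Cacna1b, a calcium channel subunit (r = 0.959). None of these was also among the genes closest to a neuronal filament. For Nefh, above noise on 3 of 8 arrays, they were Wiz, Tra2b and Cdc42ep3 (r = 0.875 to 0.927).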

How the data were processed

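The authors deposited 1 linear intensity per probe set and array, per the labels from poly(A) RNA made into biotin-labelled cRNA on Affymetrix rat arrays. The software is not given in the sources used here, nor is its scaling. Every array had the same trimmed mean (2500, to within 0.000176%), so the deposited scale was kept. Gene names came from the platform annotation (7018 probe sets with 1 symbol, 308 with several, 1473 with none), and 59 control probe sets were left out.

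Intensities under the pooled 25th percentile (45.9) were set to it before log2. Tests covered probe sets that exceeded 255, the 40th percentile of all values, on 2 arrays or more. The 4 group means were fitted over 8 arrays by limma 3.58.1 under R 4.3.3 (lmFit, eBayes with an intensity trend, 4 residual and 4.63 prior degrees of freedom), with two-sided p-values adjusted by Benjamini-Hochberg over 5881 probe sets and a threshold of 0.05. A fold is 2 to the power of a fitted log2 difference; "at least" sets the dim side at its noise level or its own value, whichever is higher. Fit and adjustment were tested on simulated data.

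The members and lists were chosen with earlier results of these data known. The text names every member probe set, the 3 closest genes of each member by Pearson r, and up to 3 genes with the smallest p of each further list. The alternatives were other floors, transforms, filters, normalization and variance settings, a replicate block, the arrays of 1 region and leaving out each array.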

Additional observations from a re-analysis of the deposited data

How the results depend on the processing

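The regional count of 6 member probe sets ran from 4 to 6 over 17 alternatives, and the genotype counts were 0 in each. With each array's own noise level in the inverse hyperbolic sine, the count was 4, without both probe sets of Ina. Under that setting the median log2 difference of all probe sets was 0.17 in forebrain, 0.40 in hindbrain and 0.29 over both. It was -0.22 in the interaction and -0.22 between regions. The main medians were 0.008, 0.037, 0.027, -0.019 and -0.019 in the same order. With 1 noise level for all arrays, added after seeing the data, the regional count of members was 6. The replicate block gave the same 6 members and 139 probe sets in all (89 without it); the replicate numbers, whose deviations correlated with r from 0.275 to 0.465, are only 2 and were taken as names. Over all probe sets the count ran from 0 to 5 in forebrain, 1 to 22 in hindbrain, 0 to 19 over both, 0 to 13 in the interaction and 37 to 139 between regions. It was 45 with each array's own noise level, 41 and 37 without Pax6 homozygous hindbrain replicate 1 and 2, and 52 without wild-type hindbrain replicate 2. Under each array's own noise level, differences whose sign turned were, in forebrain, Nefm 0.10 and Vim 0.10; in hindbrain, Nefl (AF031880_at) 0.24, Nefm 0.16, Nes 0.33 and Vim 0.28; over both regions, Nefm 0.13, Ina (rc_AA875659_s_at) 0.049, Nes 0.30 and Vim 0.19; and in the interaction, Nefm -0.058, Nes -0.064 and Vim -0.17. With the floor at the pooled median, Nefl (M25638_s_at) over both regions was -0.22. Leaving out 1 array at a time turned the sign of further differences, none of them called. In forebrain the ranges were -0.52 to 0.34 for Nefm, -0.97 to 0.18 for Prph, -0.050 to 0.21 for Nes and -0.19 to 0.035 for Vim. In hindbrain they were -0.39 to 0.056 for Nefl (AF031880_at), -0.26 to 0.092 for Nes and -0.32 to 0.054 for Vim. Over both regions they were -0.22 to 1.01 for Nefl (M25638_s_at), -0.39 to 0.045 for Nefm and -0.090 to 0.086 for Nes. In the interaction they were -0.26 to 0.60 for Nefm, -0.31 to 0.84 for Prph, -0.011 to 0.34 for Nes and -0.13 to 0.24 for Vim. Between the regions Vim ran from -0.15 to 0.035. The cause was not tested. The hindbrain difference of Ina kept its sign in 18 alternatives, at -0.92 to -0.46 (M73049_at, lowest adjusted p = 0.306) and -0.84 to -0.35 (rc_AA875659_s_at, lowest adjusted p = 0.260). Values near the noise level limit Nefh, Prph in forebrain and 1 probe set each of Nefl and Nes, and the fit on the arrays of 1 region exists for the genotype differences within a region alone.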
